A study of Homo sapiens with 24 samples.

Results

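NFKBIA, NFKBIZ, TNFAIP3, BIRC3, CXCL8, CXCL1, CXCL2, IL6, LIF and IL11 are targets of the transcription factor NF-kB that either feed back on the pathway or encode secreted cytokines. These 10 genes were taken by symbol, out of 60308 genes with exon counts and 37473 genes with intron counts, and each of the 10 was present in both tables. They were followed in U2OS cells, a human osteosarcoma line, in which the study asked how inhibition of the RNA helicase DDX3 changes the RNA held in stress granules and P-bodies. RNA was sequenced from the soluble and the insoluble part of the cytoplasm, the insoluble part being the pellet enriched for ribonucleoprotein granules after nuclei had been spun out, and ribosomal RNA was depleted. Control cells (Ctrl) received 0.12% DMSO for 2 h. NaAsO2 cells (label Ars) received 500 µM sodium arsenite, an inducer of oxidative stress, for 60 min. RK-33 cells (label RK) received 6 µM RK-33, a small molecule that blocks the ATPase of DDX3. Combo cells (label RK_Ars) received 6 µM RK-33 for 1 h before 500 µM sodium arsenite for 60 min. For RK-33 cells the 1 h pre-treatment is the only RK-33 time stated outright, and the methods describe the DMSO of Ctrl as matched to the RK-33 addition. No DMSO is recorded for NaAsO2 cells. The 4 treatments, 2 fractions and 3 replicates gave 24 libraries in 8 groups, all from a single cell line, and the methods state that the experiment was repeated 3 times.

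NF-kB dimers are held in the cytoplasm by IkB proteins. When a cytokine receptor or a stress signal activates the IkB kinase, the IkB protein is degraded, the dimers enter the nucleus, and they switch on their own inhibitors together with chemokines, cytokines and survival genes. IkB-alpha (NFKBIA) captures the dimers again, A20 (TNFAIP3) is a ubiquitin-editing enzyme that dampens signalling upstream of the kinase, and IkB-zeta (NFKBIZ) is a nuclear IkB protein that works as a cofactor for a subset of NF-kB targets. CXCL8 (interleukin-8), CXCL1 and CXCL2 attract neutrophils. IL6, LIF and IL11 are cytokines of 1 family that signal through the shared receptor chain gp130, and BIRC3 (cIAP2) is a ubiquitin ligase of the tumor necrosis factor receptor complex. Many of these transcripts are short-lived and their genes respond quickly, so that messenger RNA and unspliced precursor can change within the time of such a treatment.

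Promoter windows from RefSeq (GRCh38.p14, 250 bases before to 50 bases after the start) were found for 9 of the 10 genes, all but LIF. NFKBIZ had 2 windows and the others 1 each, and a gene was counted when any of its windows held a match. The kB consensus bound by NF-kB, searched on both strands, was present in 7 of these 9 genes and in 11.3% of all 35116 promoter windows. The palindromic form GGAANTTCC was present in 5 of 9 genes and in 0.965% of all windows, and in NFKBIA, NFKBIZ, CXCL2 and CXCL1 it overlapped the kB consensus. The AP-1 letters TGANTCA were present in 2 of 9 genes, CXCL8 and IL11, and in 7.71% of all windows. Such matches are letters in a window, not measured binding sites. Stretches are shown for the 5 genes on which the expression results turn, each read 5′ to 3′ on the strand of its gene, with capitals marking the matched letters.

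NFKBIA, chr14:35404801-35404850, minus strand: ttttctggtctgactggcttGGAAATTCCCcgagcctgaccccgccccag

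NFKBIZ, chr3:101827747-101827796, plus strand: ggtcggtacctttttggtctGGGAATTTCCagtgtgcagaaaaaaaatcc

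TNFAIP3, chr6:137867172-137867233, plus strand: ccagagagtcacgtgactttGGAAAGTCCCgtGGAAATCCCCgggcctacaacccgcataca

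CXCL8, chr4:73740412-73740506, plus strand: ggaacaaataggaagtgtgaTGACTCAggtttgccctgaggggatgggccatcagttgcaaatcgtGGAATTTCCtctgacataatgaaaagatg

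IL11, chr19:55370533-55370579, minus strand: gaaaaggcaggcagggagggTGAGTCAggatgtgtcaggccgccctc

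In the CXCL8 stretch the first run of capitals is the AP-1 match and the second the palindromic kB-like match. In the IL11 stretch the capitals mark the AP-1 match, and the other 3 stretches hold kB consensus matches only or together with the palindromic form.

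In the annotation used for the counts (GRCh38), NFKBIA lies at chr14:35401513-35404749, NFKBIZ at chr3:101827991-101861022, TNFAIP3 at chr6:137867214-137883312 and BIRC3 at chr11:102317450-102339403. CXCL8 lies at chr4:73740519-73743716, CXCL1 at chr4:73869393-73871308 and CXCL2 at chr4:74097040-74099196. IL6 lies at chr7:22725884-22732002, LIF at chr22:30240453-30246759 and IL11 at chr19:55364382-55370463. Exon counts hold reads on any annotated exon of the gene and intron counts hold reads on the remaining bases of the gene body. Reads were counted without regard to strand, so reads of an overlapping antisense gene cannot be told apart. IL6 shares 428 exonic bases with IL6-AS1, TNFAIP3 shares 95 with WAKMAR2, LIF shares 86 with LIF-AS1 and 83 with LIF-AS2, BIRC3 shares 126 with an unnamed antisense gene, and NFKBIZ shares 194 with NXPE3 on its own strand.

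The libraries held 10968059 to 19799530 exon and intron counts. NaAsO2 insoluble replicate 3 stood apart, because RN7SL1 took 5.79% of its exon counts, against 0.426% to 1.23% in the other 11 insoluble libraries and 7.51% to 15.5% in the soluble ones. Where leaving it out ended a call given here, made a value given here a call, or moved it by more than 1.5 times, the value without it stands beside the result. Replicate 3 of RK-33 soluble and of Combo insoluble also differed from the other 2 of its group, less strongly. Chi-square per degree of freedom in these pairs was 23.1 and 32.4 (RK-33 soluble) and 25.5 and 32.1 (Combo insoluble). It was 130 and 142 for NaAsO2 insoluble replicate 3 and 2.39 to 7.01 in every other pair. Of 6 osteosarcoma and mesenchymal markers, 5 passed the filter on low counts, and RUNX2 lay between 45.4 and 89.9 CPM (counts scaled to library size, TMM factor included) in every library, whereas COL1A2 had a median of 0.159 CPM. Of 11 markers of other cell types 4 passed it, CDH1 (median 4.95 CPM), EPCAM (3.59), PECAM1 (1.97) and PTPRC (1.12). The summed level of all 11 was 10.3 to 18.8 CPM, highest in Ctrl soluble (15.5 to 18.8 CPM), and their part in the results was not tested. CPM is a share of a library, so that less RNA per cell, fewer cells and a shift of other RNAs cannot be told apart.

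CXCL2 and CXCL1 were too low to judge. CXCL2 had 3 exon counts in all 24 libraries, all in Combo soluble replicate 3, and CXCL1 had 1, in NaAsO2 insoluble replicate 3. Neither had an intron count. A count of 0 allows up to 3 counts, which is 0.202 to 0.356 CPM per library on exons and 0.577 to 1.60 CPM on introns, counting error only. IL6 stood at the edge of the filter (1 CPM on average, 0.956 CPM over the 18 libraries other than Ctrl), with 5 to 21 exon counts per library, and BIRC3 had 20 to 122. On introns IL6 had 14 counts and BIRC3 70 counts over all libraries, both too low to judge. Thus 8 of the 10 genes were tested on exons and 6 on introns. Per kilobase of exon, mean levels in Ctrl soluble were highest for LIF (32.5 CPM per kb) and NFKBIA (22.5), followed by IL11 (5.82), CXCL8 (5.73), NFKBIZ (5.20), TNFAIP3 (2.83), BIRC3 (0.766) and IL6 (0.326).

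**Figure D1:**
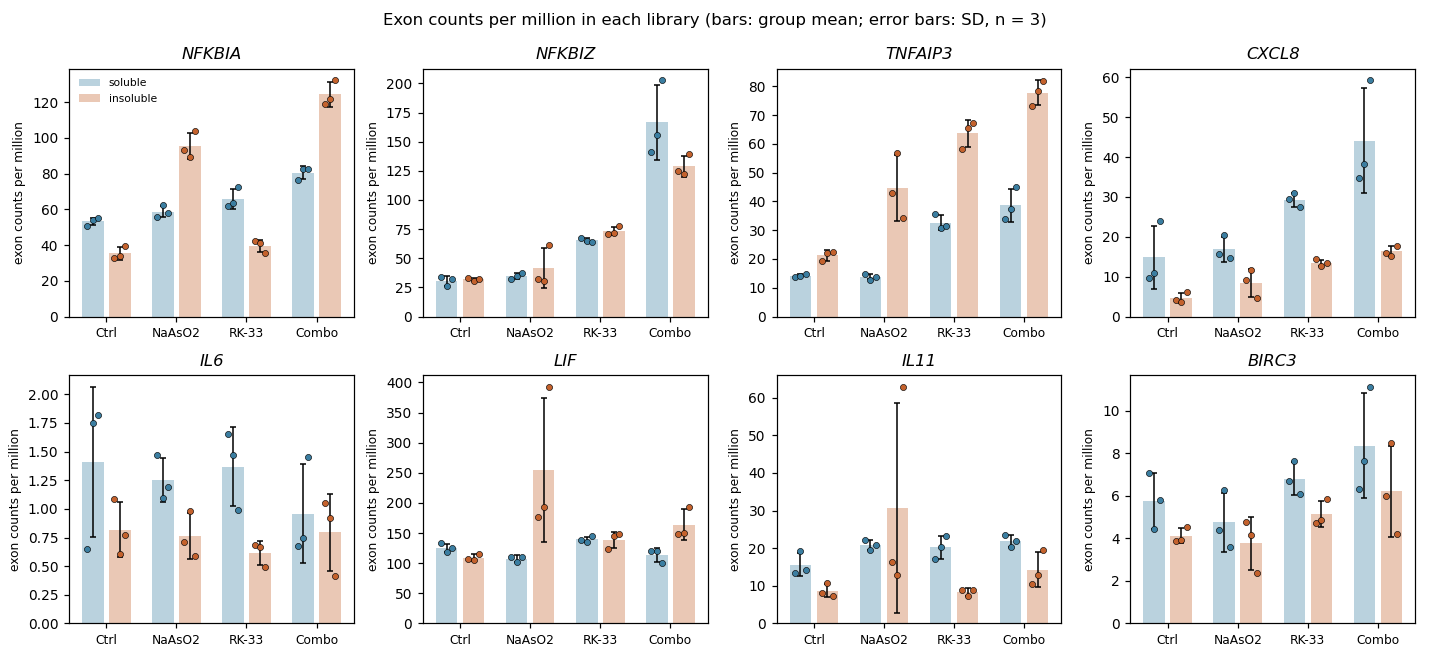
Exon level of each tested gene in CPM (vertical axes) in the 8 groups (horizontal axes), with 1 point per library and the mean and SD of 3 replicates. NFKBIZ reached 167 CPM in Combo soluble, NFKBIA 124 CPM in Combo insoluble, and in LIF and IL11 a single NaAsO2 insoluble library lay far above the other 2.

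The responses to the treatments differed between the fractions and between genes. NaAsO2 alone raised 4 of the 8 tested genes in the insoluble fraction (3 without NaAsO2 insoluble replicate 3) and 0 in the soluble fraction. RK-33 alone raised NFKBIZ and TNFAIP3 in both fractions and CXCL8 in the insoluble fraction. Combo held the highest NFKBIZ, NFKBIA, TNFAIP3 and CXCL8 levels of the study. A change is called here when edgeR's adjusted p over all 17666 genes tested is under 0.05 and the fold change is at least 2, that is 1 on the log2 scale. In the 8 treatment contrasts, the 8 tested genes gave 15 calls, all of them higher, where 3.63% of all pairs of gene and contrast were called in either direction. The genes were chosen with earlier results of these data known, so setting their calls beside such shares is a description and not a test. IL11 in Combo against NaAsO2 in the insoluble fraction had a lower value just outside the threshold (given with that gene).

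In the soluble fraction after NaAsO2, 0 of 8 genes were called by edgeR and 0 by DESeq2, with 1.68% of all genes called in either direction, and 0 reached an unadjusted p under 0.05. The log2 fold changes ran from -0.28 (BIRC3) to 0.41 (IL11; SE 0.37, adjusted p = 0.493 by edgeR). The same treatment raised NFKBIA, TNFAIP3, LIF and IL11 in the pellet, 4 of 8 genes, where 5.61% of all genes were called higher. Without NaAsO2 insoluble replicate 3, LIF (0.83) and IL11 (0.82) were under the fold limit and CXCL8 (1.23) was called. The median log2 fold change of the 8 genes was 0.99, against -0.02 over all genes tested.

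After RK-33 alone, 2 of 8 genes were called higher in the soluble fraction (0.283% of all genes) and 3 of 8 in the insoluble fraction (0.702% of all genes). Without NaAsO2 insoluble replicate 3, CXCL8 was also called in the soluble fraction, which made 3 of 8. The median log2 fold change of the 8 genes was 0.34 (soluble) and 0.33 (insoluble). Combo against NaAsO2 asks what RK-33 adds to arsenite: 3 of 8 genes were called higher in the soluble fraction (2.41% of all genes) and 1 of 8 in the insoluble fraction (3.11% of all genes). Combo against RK-33 asks what arsenite adds to RK-33: 1 of 8 was called higher in each fraction (1.83% of all genes in the soluble, 1.23% in the insoluble one). These contrasts share groups, so that their calls are not independent of each other.

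NFKBIA, the classical IkB, responded to arsenite in the insoluble fraction. Its insoluble exon level was 32.8, 34.2 and 39.7 CPM in the Ctrl replicates and 93.5, 89.3 and 104 CPM in the NaAsO2 replicates. With RK-33 alone it was 42.1, 41.0 and 35.4 CPM, and in Combo 119, 122 and 132 CPM. All arsenite libraries lay above all libraries without arsenite. The log2 fold change was 1.42 (SE 0.11, adjusted p = 2.89e-09 by edgeR) for NaAsO2 against Ctrl and 1.65 (SE 0.11, adjusted p = 6.19e-10) for Combo against RK-33, which is 2.68-fold and 3.15-fold. Without NaAsO2 insoluble replicate 3 the first was 1.43.

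Soluble NFKBIA gave no call. Its level was 50.9, 53.9 and 55.0 CPM in Ctrl, 55.9, 62.3 and 58.1 CPM in NaAsO2, 61.9, 63.6 and 72.3 CPM in RK-33, and 76.2, 82.7 and 82.7 CPM in Combo. The Combo libraries were above all others, and the difference from NaAsO2 was 0.45 on the log2 scale (SE 0.10, adjusted p = 0.0101 by edgeR), under the 2-fold limit. In the order of the 8 groups, Combo insoluble (124 ± 6.9 CPM, SD, n = 3), NaAsO2 insoluble (95.5 ± 7.4) and Combo soluble (80.5 ± 3.7) were apart from each other, whereas RK-33 soluble overlapped with NaAsO2 soluble and RK-33 insoluble with Ctrl insoluble.

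NFKBIZ, the nuclear cofactor, followed RK-33. Its soluble exon level was 34.2, 26.04 and 31.8 CPM in Ctrl, 32.0, 34.7 and 37.6 CPM in NaAsO2, 67.5, 65.2 and 63.9 CPM in RK-33, and 141, 156 and 203 CPM in Combo. The Ctrl and NaAsO2 libraries overlapped, and both were below RK-33, which was below Combo. RK-33 raised it by 1.10 on the log2 scale against Ctrl (SE 0.19, adjusted p = 0.00108 by edgeR), and by 2.26 when added to NaAsO2 (SE 0.19, adjusted p = 4.32e-08), which is 4.79-fold. The first of these calls sat at the fold limit, with 0.98 when Ctrl soluble replicate 2 was left out.

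Arsenite raised NFKBIZ in the soluble fraction only on top of RK-33: Combo exceeded RK-33 by 1.35 (SE 0.18, adjusted p = 6.43e-05 by edgeR), whereas NaAsO2 against Ctrl gave 0.18 (SE 0.19, adjusted p = 0.560). The test of this difference gave 1.16 (SE 0.26, adjusted p = 0.0212), a contrast in which 0.917% of all genes were called higher. Its adjusted p was 0.0551, 0.0831, 0.0656 and 0.0657 when Ctrl soluble replicate 3, Ctrl soluble replicate 1, NaAsO2 soluble replicate 1 or RK-33 soluble replicate 3 was left out.

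The insoluble NFKBIZ level was 32.7, 30.5 and 32.5 CPM in Ctrl, 32.2, 30.5 and 61.2 CPM in NaAsO2, 70.6, 72.0 and 77.7 CPM in RK-33, and 125, 122 and 139 CPM in Combo. The NaAsO2 value of 61.2 CPM came from replicate 3, the library that stood apart. RK-33 raised the insoluble level by 1.20 against Ctrl (SE 0.19, adjusted p = 1.47e-04 by edgeR) and by 1.65 against NaAsO2 (SE 0.19, adjusted p = 5.99e-06), or 1.99 without that library. The last call was lost when only its own groups entered the fit (adjusted p = 0.0940). Combo against RK-33 gave 0.81 (SE 0.18, adjusted p = 0.00774), short of the 2-fold limit, and the arsenite effect with RK-33 minus that without was 0.45 (SE 0.26, adjusted p = 0.267), or 0.78 (adjusted p = 0.00236) without NaAsO2 insoluble replicate 3.

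TNFAIP3, which encodes A20, rose with RK-33 in both fractions and with NaAsO2 in the insoluble fraction. Its soluble exon level was 13.8, 14.1 and 14.8 CPM in Ctrl, 14.8, 12.9 and 13.9 CPM in NaAsO2, 35.6, 30.7 and 31.5 CPM in RK-33, and 33.7, 37.3 and 44.9 CPM in Combo. Groups with RK-33 were separate from groups without it. The log2 fold change was 1.20 for RK-33 against Ctrl (SE 0.15, adjusted p = 5.74e-05 by edgeR) and 1.48 for Combo against NaAsO2 (SE 0.15, adjusted p = 9.58e-07).

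The insoluble TNFAIP3 level was 19.2, 21.97 and 22.5 CPM in Ctrl and 42.9, 56.7 and 34.2 CPM in NaAsO2. It was 58.3, 65.5 and 67.2 CPM in RK-33 and 73.2, 78.4 and 81.7 CPM in Combo. All 4 groups were separate. NaAsO2 exceeded Ctrl by 1.08 (SE 0.15, adjusted p = 9.82e-06 by edgeR), with 1.30 without NaAsO2 insoluble replicate 3 and 0.87, under the limit, without replicate 2. RK-33 exceeded Ctrl by 1.58 (SE 0.15, adjusted p = 2.14e-07), which is 3.00-fold. Combo against NaAsO2 gave 0.80 (adjusted p = 0.00104), or 1.01, a call, without NaAsO2 insoluble replicate 2, and Combo against RK-33 gave 0.29 (adjusted p = 0.252). The arsenite effect was 0.79 lower on the log2 scale with RK-33 than without it (log2 difference -0.79, SE 0.20, adjusted p = 0.0148), under the 2-fold limit, but -1.01 (adjusted p = 1.81e-04), a call, without NaAsO2 insoluble replicate 3.

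CXCL8, the neutrophil chemokine, was the only chemokine of the 3 with enough counts. Its soluble exon level was 9.59, 10.9 and 23.98 CPM in Ctrl, 15.7, 20.4 and 14.6 CPM in NaAsO2, 29.4, 30.9 and 27.5 CPM in RK-33, and 34.9, 38.3 and 59.2 CPM in Combo. Ctrl replicate 3 lay above all NaAsO2 libraries, whereas all RK-33 and Combo libraries lay above Ctrl. RK-33 against Ctrl gave 0.99 (SE 0.29, adjusted p = 0.0465 by edgeR), just under the 2-fold limit. It was a call under 7 of 34 alternatives, with 1.51 (adjusted p = 0.00432) when Ctrl soluble replicate 3 was left out and 1.03 (adjusted p = 0.0350) with the replicate number as a block. Without NaAsO2 insoluble replicate 3 it was also a call (1.002, adjusted p = 0.00238 by edgeR). Combo against NaAsO2 gave 1.38 (SE 0.29, adjusted p = 0.00439), a call.

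The insoluble CXCL8 level was 4.22, 3.53 and 6.08 CPM in Ctrl, 9.11, 11.6 and 4.63 CPM in NaAsO2, 14.3, 12.6 and 13.4 CPM in RK-33, and 15.98, 15.3 and 17.8 CPM in Combo. NaAsO2 overlapped with Ctrl, and both were below RK-33 and Combo. The rise with RK-33 was 1.54 (SE 0.33, adjusted p = 0.00247 by edgeR), or 2.90-fold. NaAsO2 against Ctrl gave 0.90 (SE 0.33, adjusted p = 0.0329) and Combo against NaAsO2 0.92 (SE 0.30, adjusted p = 0.0419), both under the 2-fold limit. These values and the overlap with Ctrl rested on NaAsO2 insoluble replicate 3, the lowest of its group. Without it NaAsO2 lay above Ctrl at 1.23 (adjusted p = 0.00183), a call, and Combo against NaAsO2 was 0.61 (adjusted p = 0.129). NaAsO2 against Ctrl was also called without Ctrl insoluble replicate 3 (1.20), and Combo against NaAsO2 without NaAsO2 insoluble replicate 2 (1.21).

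LIF, a cytokine that signals through gp130 with its own receptor chain, was called in 1 of the 8 treatment contrasts, NaAsO2 against Ctrl in the insoluble fraction. Its insoluble exon level was 107, 105 and 116 CPM in Ctrl, 177, 193 and 392 CPM in NaAsO2, 123, 145 and 148 CPM in RK-33, and 148, 150 and 193 CPM in Combo. Replicate 3 of NaAsO2 was the highest library, and the other 2 were still above Ctrl and RK-33. NaAsO2 against Ctrl gave 1.22 (SE 0.20, adjusted p = 6.24e-05 by edgeR) with all libraries and 0.83 (adjusted p = 1.01e-06) without that replicate, which is under the 2-fold limit. The soluble level, 133, 119 and 125 CPM in Ctrl and 111, 101 and 111 CPM in NaAsO2, gave -0.22 (SE 0.19, adjusted p = 0.474).

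IL11 showed a similar dependence on 1 library. Its insoluble exon level was 8.12, 10.7 and 7.34 CPM in Ctrl, 16.4, 12.99 and 62.7 CPM in NaAsO2, 9.01, 7.22 and 8.81 CPM in RK-33, and 10.6, 12.9 and 19.4 CPM in Combo. NaAsO2 was above Ctrl in 3 of 3 libraries, but replicate 3 was several times the other 2. The log2 fold change was 1.79 (SE 0.39, adjusted p = 0.00101 by edgeR) with all libraries, 0.82 (adjusted p = 0.00236) without NaAsO2 insoluble replicate 3, and 1.85 with an adjusted p of 0.0752 when only the groups of the contrast entered the fit. Combo against NaAsO2 in the insoluble fraction gave -1.07 (SE 0.37, adjusted p = 0.0546). This value was called lower under 9 of 35 alternatives, DESeq2 among them (-1.12, adjusted p = 0.0197), and was -0.08 without NaAsO2 insoluble replicate 3. In the soluble fraction the level was 13.4, 19.1 and 14.2 CPM in Ctrl and 22.2, 19.4 and 20.7 CPM in NaAsO2.

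IL6 and BIRC3 gave no call in a treatment contrast. Mean IL6 levels ran from 0.616 to 1.41 CPM over the 8 groups and mean BIRC3 levels from 3.76 to 8.36 CPM, and in both genes every group overlapped with the next in order. The largest BIRC3 value was 0.81 for Combo against NaAsO2 in the soluble fraction (SE 0.27, adjusted p = 0.0816 by edgeR), with 4.40, 6.28 and 3.58 CPM in NaAsO2 and 6.34, 7.63 and 11.1 CPM in Combo, and it was a call (1.04, adjusted p = 0.0411) without Combo soluble replicate 1.

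**Figure D2:**
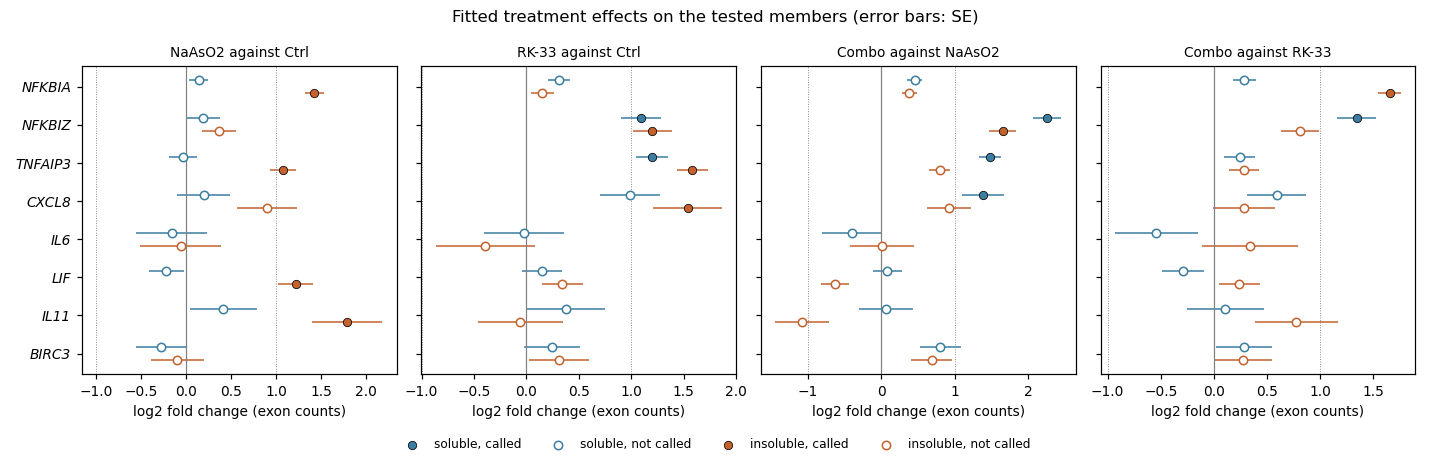
Log2 fold change of exon counts with its SE (horizontal axes) for the 8 tested genes (vertical axis) in the 4 treatment contrasts, soluble and insoluble fraction in separate colours, with filled symbols for calls. After NaAsO2, NFKBIA, TNFAIP3, LIF and IL11 are called in the insoluble fraction and not in the soluble one (LIF and IL11 at 0.83 and 0.82, under the limit, without NaAsO2 insoluble replicate 3), and NFKBIZ and TNFAIP3 after RK-33 in both fractions, with NFKBIZ at 2.26 in the soluble fraction for Combo against NaAsO2.

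The fractions were then compared within each treatment. CXCL8 favoured the soluble fraction in all 12 pairs of fractions. In Ctrl its insoluble against soluble difference was -1.67 (SE 0.33, adjusted p = 2.15e-04 by edgeR), with RK-33 -1.12 (SE 0.29, adjusted p = 0.00213) and in Combo -1.43 (SE 0.28, adjusted p = 2.11e-04). With NaAsO2 it was -0.97 (SE 0.30, adjusted p = 0.0085), under the fold limit, and -1.04 (adjusted p = 3.85e-04), a call, when the lysate was a block in the fit (the form the replicate block takes between fractions). TNFAIP3 favoured the insoluble fraction in all 12 pairs, with 0.58 in Ctrl (SE 0.15, adjusted p = 0.00335), 1.69 with NaAsO2 (SE 0.15, adjusted p = 2.75e-09, and 1.89 without replicate 3 of its insoluble fraction), 0.97 with RK-33 (SE 0.14, adjusted p = 6.37e-06, a call under 3 of 34 alternatives) and 1.01 in Combo (SE 0.14, adjusted p = 3.60e-06). The Combo value sat at the fold limit, between 0.86 and 1.13 over the alternatives and at 0.97 without NaAsO2 insoluble replicate 3.

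The calls made here were 1 of 8 genes in Ctrl (lower, 10.7% of all genes), 2 of 8 with NaAsO2 (both higher, 14.6% of all genes), 3 of 8 with RK-33 (all lower, 15.2% of all genes) and 2 of 8 in Combo, 1 higher and 1 lower (10.0% and 13.1% of all genes). These counts come from 8 genes only and were not tested against the shares of all genes, so they say little about the genes as a group. The other calls were IL11 with RK-33, at -1.28 (SE 0.39, adjusted p = 0.00719 by edgeR), LIF with NaAsO2 at 1.24 (SE 0.20, adjusted p = 1.18e-05; 0.82 without NaAsO2 insoluble replicate 3), and IL6 with RK-33 at -1.14 (SE 0.42, adjusted p = 0.0248). The IL6 call was lost with the lysate as a block (adjusted p = 0.0679), and without RK-33 insoluble replicate 2 (0.0504) or replicate 3 (0.0713).

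NFKBIA changed sides. It was lower in the insoluble fraction in Ctrl (-0.58, SE 0.11, adjusted p = 1.07e-04 by edgeR) and with RK-33 (-0.74, SE 0.11, adjusted p = 3.79e-06), and higher there with NaAsO2 (0.70, SE 0.10, adjusted p = 5.39e-06) and in Combo (0.63, SE 0.10, adjusted p = 2.56e-05), each under the fold limit. Every one of the 3 pairs had that sign within each treatment. The fraction difference with NaAsO2 minus that in Ctrl was tested directly and gave 1.28 for NFKBIA (SE 0.15, adjusted p = 4.67e-06), 1.11 for TNFAIP3 (SE 0.21, adjusted p = 7.07e-04) and 1.44 for LIF (SE 0.28, adjusted p = 6.79e-04). These are 3 of 8 genes, where 4.57% of all genes were called higher. Without NaAsO2 insoluble replicate 3 the values were 1.30, 1.36 and 1.07, and the TNFAIP3 value was 0.90 without NaAsO2 insoluble replicate 2. IL11 gave 1.38 (SE 0.54, adjusted p = 0.0695), which was called under 12 of 34 alternatives, DESeq2 among them (1.42, adjusted p = 0.0327), and fell to 0.42 (adjusted p = 0.274) without NaAsO2 insoluble replicate 3. CXCL8 was called there (1.04, adjusted p = 0.0440) only without that library.

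RK-33 alone changed the fraction difference of 0 of 8 genes (0.436% of all genes called in either direction), with 0 at an unadjusted p under 0.05 and 0 calls by DESeq2. Combo minus NaAsO2 also gave 0 of 8 (0.142% of all genes) and 0 by DESeq2. There, 4 genes had an unadjusted p under 0.05, namely NFKBIZ (-0.61), TNFAIP3 (-0.68), LIF (-0.72) and IL11 (-1.14), with adjusted p between 0.150 and 0.355. Without NaAsO2 insoluble replicate 3 these values were -0.31, -0.93, -0.34 and -0.18, TNFAIP3 at an adjusted p of 0.00458. In the insoluble fraction the arsenite effect with RK-33 minus that without gave 0 calls of 8 (3.97% of all genes called), although TNFAIP3 (above) and LIF (-0.98, SE 0.27, adjusted p = 0.0240) passed the p threshold and DESeq2 called 1 gene, LIF. The LIF value was called under 14 of 34 alternatives and was -0.58 (adjusted p = 0.00823) without NaAsO2 insoluble replicate 3.

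**Figure D3:**
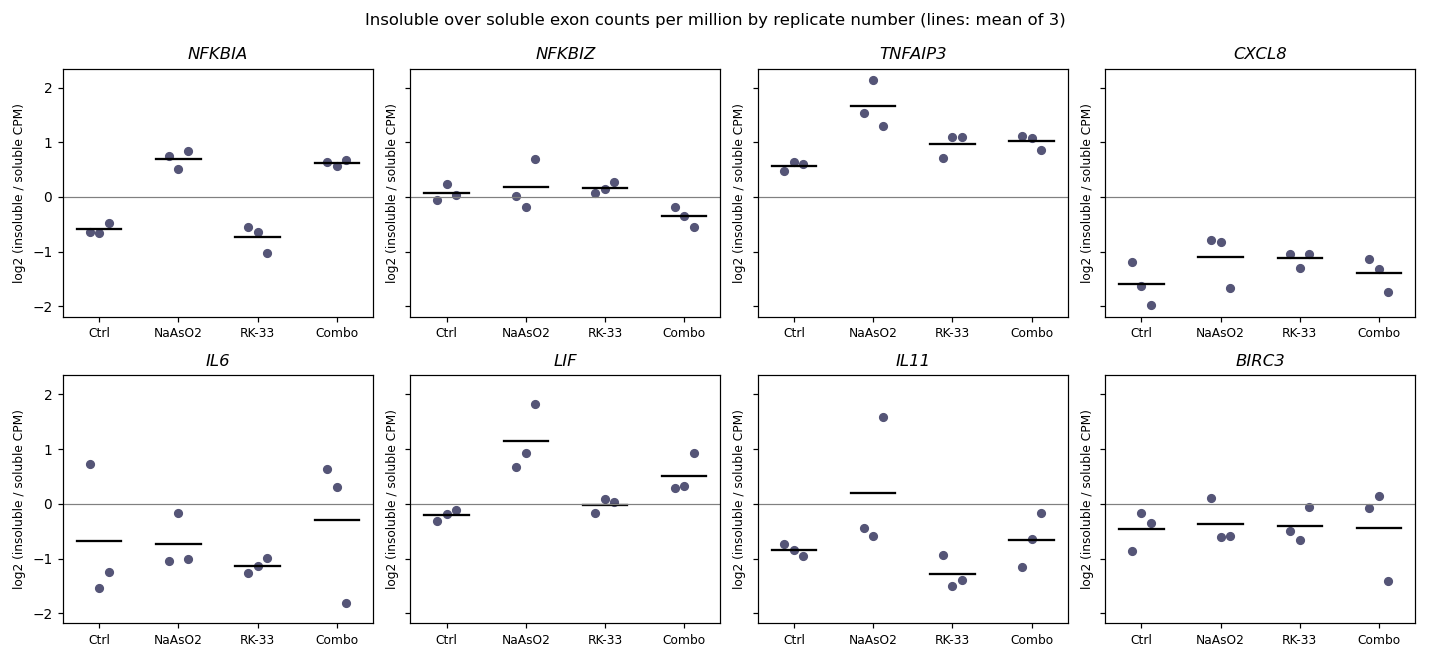
Log2 ratio of insoluble to soluble exon CPM (vertical axes) for each lysate of the 4 treatments (horizontal axes), with 1 point per lysate and a line at the mean of 3. NFKBIA lies under 0 in Ctrl and RK-33 and above 0 in NaAsO2 and Combo, CXCL8 under 0 and TNFAIP3 above 0 in all 12 lysates.

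Intron counts were tested for 6 genes over 17406 genes tested. Reads on introns can come from unspliced precursor, retained introns, excised introns or overlapping antisense RNA, and which of these gave the counts was not tested. Over all genes there were 26.03, 18.8, 22.03 and 28.6 intron counts per 100 exon counts in Ctrl, NaAsO2, RK-33 and Combo of the soluble fraction, and 50.3, 27.5, 55.8 and 38.3 in the insoluble fraction. Of 3 nuclear RNAs, MALAT1 was lower after NaAsO2 in the insoluble fraction (-1.64 on exons, adjusted p = 3.17e-06 by edgeR), with a median of -0.88 for the 3, and KCNQ1OT1 (1.88) and MALAT1 (1.15) were higher in Combo than in NaAsO2 there, with a median of 1.15 (MALAT1 and the median at 0.89, under the fold limit, without NaAsO2 insoluble replicate 3). The part of these shifts in the intron changes was not tested. Between fractions, edgeR called all 3 RNAs in each treatment, 2 towards the pellet and 1 towards the soluble part. Without NaAsO2 insoluble replicate 3, NEAT1 stood at 1.80, 1.46, 2.32 and 1.11 (insoluble against soluble, Ctrl, NaAsO2, RK-33 and Combo). KCNQ1OT1 stood at 1.68, 1.30, 2.08 and 1.46, and MALAT1 at -1.12, -1.64, -1.23 and -1.26. The part of nuclear RNA in the fraction and intron differences was not tested. The 6 genes gave 19 calls over 17 contrasts, 12 higher and 7 lower, all of them in treatment contrasts. CXCL8 made 4 of these calls, but it passed the filter only through the RK-33 libraries, so that it had to differ there and its calls carry no weight. After NaAsO2, 0 of 6 were called in the soluble fraction (2.51% of all genes in either direction, 1 gene at an unadjusted p under 0.05) and 1 higher and 1 lower in the insoluble fraction (10.1% and 3.83% of all genes). After RK-33, 2 of 6 were called higher in each fraction, TNFAIP3 and CXCL8. As CXCL8 entered through these libraries, only the TNFAIP3 call can be set beside the share of all genes (0.620% and 0.689%). Combo against NaAsO2 gave 2 higher and 1 lower in the soluble fraction (5.37% and 0.896% of all genes) and 3 higher and 1 lower in the insoluble fraction (6.34% and 3.94%). Combo against RK-33 gave 1 higher and 2 lower in each fraction (8.81% and 4.18% of all genes for the soluble, 9.73% and 4.66% for the insoluble one). LIF and CXCL8 were the lower ones in each, and the CXCL8 calls carry no weight.

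TNFAIP3 introns rose with RK-33. The soluble level was 4.52, 5.58 and 4.34 intron CPM in Ctrl, 4.26, 3.07 and 3.69 in NaAsO2, 17.6, 21.1 and 26.2 in RK-33, and 20.03, 24.9 and 18.6 in Combo. The groups with RK-33 were separate from the groups without it. RK-33 against Ctrl gave 2.15 on the log2 scale (SE 0.31, adjusted p = 6.94e-05 by edgeR), and Combo against NaAsO2 2.53 (SE 0.35, adjusted p = 4.41e-06), larger than the exon values of 1.20 and 1.48, a difference between the tables that was not tested.

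The insoluble level of TNFAIP3 introns was 3.89, 8.54 and 5.25 CPM in Ctrl, 3.15, 7.12 and 1.85 in NaAsO2, 39.6, 34.8 and 35.8 in RK-33, and 17.8, 24.2 and 15.3 in Combo. RK-33 against Ctrl gave 2.64 (SE 0.27, adjusted p = 1.06e-07 by edgeR), or 6.22-fold, and Combo lay 0.94 under RK-33 on the log2 scale (log2 difference -0.94, SE 0.24, adjusted p = 0.00313), within the fold limit. The exon value in the same comparison was 0.29, which did not pass the p threshold, and the difference between the tables was not tested. Combo exceeded NaAsO2 by 2.26 (SE 0.31, adjusted p = 3.95e-06), or 1.98 without NaAsO2 insoluble replicate 3. Insoluble TNFAIP3 had 12.5 intron counts per 100 exon counts in Ctrl, 2.12 in NaAsO2, 26.5 in RK-33 and 8.28 in Combo, where the values over all genes were 50.3, 27.5, 55.8 and 38.3.

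Of 168 CXCL8 intron counts in the study, 81 were in RK-33 soluble and 65 in RK-33 insoluble libraries, and 7 libraries had none. The soluble fraction held 27, 43 and 11 intron counts in RK-33, against 1, 2 and 1 in Ctrl, 0, 0 and 1 in NaAsO2 and 2, 2 and 2 in Combo. The insoluble fraction held 21, 28 and 16 in RK-33, against 2, 4 and 0 in Ctrl, 2, 0 and 0 in NaAsO2 and 3, 0 and 0 in Combo. Pooled over 3 libraries per group and taken per intron count, RK-33 exceeded Ctrl by a ratio of 18.8 (soluble) and 9.26 (insoluble). It exceeded Combo by 16.8 (soluble) and 19.6 (insoluble). These ratios leave out the spread between replicates. They are a description only, because CXCL8 introns passed the filter through the RK-33 libraries themselves. The gene averaged 1.92 CPM on introns over the 24 libraries and 0.347 CPM over the 18 without RK-33 alone, under the filter, so no test is given for it. Exon CXCL8 in Combo was at or above its RK-33 level in both fractions, with 0.59 (adjusted p = 0.314) and 0.28 (adjusted p = 0.646).

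NFKBIZ was rich in intron counts, with 101 to 791 per library. In the soluble fraction it had 55.7, 74.7 and 56.4 intron CPM in Ctrl, 58.6, 44.5 and 59.6 in NaAsO2, 108, 100.2 and 112 in RK-33, and 171, 195 and 179 in Combo. Ctrl and NaAsO2 overlapped, and both were below RK-33, which was below Combo. Combo exceeded NaAsO2 by 1.75 (SE 0.18, adjusted p = 4.70e-08 by edgeR) in the soluble and by 1.36 (adjusted p = 1.39e-06, and 1.12 without NaAsO2 insoluble replicate 3) in the insoluble fraction, while RK-33 against Ctrl gave 0.77 (adjusted p = 0.0210) and 0.92 (adjusted p = 0.00182), under the fold limit. Relative to exons, NFKBIZ had 58.0 intron counts per 100 exon counts in Ctrl soluble and 31.2 in Combo soluble, and 102 and 41.0 in the insoluble fraction, values that were not tested.

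LIF introns were lowest in Combo, where exons were not. The soluble fraction held 21.4, 14.9 and 13.4 intron CPM in Ctrl, 13.3, 8.83 and 8.31 in NaAsO2, 14.3, 11.8 and 21.5 in RK-33, and 3.57, 3.20 and 2.32 in Combo. The Combo libraries, with 9 to 13 counts each, were below all others. Combo fell by 1.72 on the log2 scale against NaAsO2 (adjusted p = 0.00265 by edgeR) and by 2.36 against RK-33 (adjusted p = 1.22e-05), and in the insoluble fraction by 1.56 (adjusted p = 0.00110) and 1.22 (adjusted p = 0.00561). The insoluble difference from NaAsO2 was -1.28 (adjusted p = 0.0067) without NaAsO2 insoluble replicate 3. The insoluble difference from RK-33 was -0.87 with an adjusted p of 0.0800 without RK-33 insoluble replicate 2. LIF had 0.745 intron counts per 100 exon counts in Combo soluble and 0.783 in Combo insoluble, against 3.74 and 6.71 in Ctrl.

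IL11 introns went in the opposite direction. The soluble fraction held 6.93, 5.20 and 3.62 intron CPM in Ctrl, 10.1, 8.06 and 15.2 in NaAsO2, 5.23, 5.63 and 10.3 in RK-33, and 29.9, 24.6 and 16.8 in Combo. Insoluble values were 1.73, 2.02 and 2.97 in Ctrl, 7.26, 6.05 and 34.05 in NaAsO2, 2.73, 3.08 and 3.85 in RK-33, and 9.14, 8.71 and 22.2 in Combo. Groups with arsenite were above those without it in the insoluble fraction. Combo exceeded RK-33 by 1.80 (SE 0.46, adjusted p = 0.00397 by edgeR) in the soluble and 2.03 (SE 0.49, adjusted p = 0.00192) in the insoluble fraction, and NaAsO2 exceeded Ctrl by 2.76 (SE 0.53, adjusted p = 3.61e-04) in the insoluble fraction, or 1.58 (adjusted p = 0.0118) without NaAsO2 insoluble replicate 3. The ratio was 30.1 intron counts per 100 exon counts in Combo soluble and 10.1 in Ctrl soluble.

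NFKBIA has short introns (866 bases in all) and gave 3 to 43 intron counts per library. In the insoluble fraction its intron level was 2.81, 5.39 and 5.02 CPM in Ctrl and 1.94, 1.78 and 1.85 CPM in NaAsO2, a log2 difference of -1.22 (SE 0.42, adjusted p = 0.0271 by edgeR), opposite in sign to its exon change of 1.42. It was 3.19, 5.31 and 4.33 CPM in Combo, above NaAsO2 by 1.18 (adjusted p = 0.0375). Both calls were lost when 1 of several libraries was left out, with adjusted p of 0.0537 to 0.0982 for the first (without any of NaAsO2 insoluble replicates 1, 2 and 3 and Ctrl insoluble replicates 2 and 3) and 0.0545 to 0.152 for the second (without any of NaAsO2 insoluble replicates 1, 2 and 3 and Combo insoluble replicates 2 and 3). The second was also lost with the replicate number as a block in a fit of its 2 groups alone (1.16, adjusted p = 0.0947). Between fractions edgeR called 0 introns of the 24 pairs of gene and contrast (4 with an unadjusted p under 0.05, 0 calls by DESeq2, and IL11 in Ctrl at -1.24 and with RK-33 at -1.07 called without NaAsO2 insoluble replicate 3), where 18.9%, 11.1%, 25.9% and 12.7% of all genes were called in Ctrl, NaAsO2, RK-33 and Combo. In the 5 interactions it called 0 of 30 (4 with an unadjusted p under 0.05, 1 call by DESeq2, and LIF in the soluble fraction at -1.62 called without that library), where 1.55% of all genes were called for the fraction effect of NaAsO2 minus Ctrl, 0 for those of RK-33 minus Ctrl and Combo minus NaAsO2, and 2.62% and 7.14% for the arsenite effect with minus without RK-33 in the 2 fractions.

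**Figure D4:**
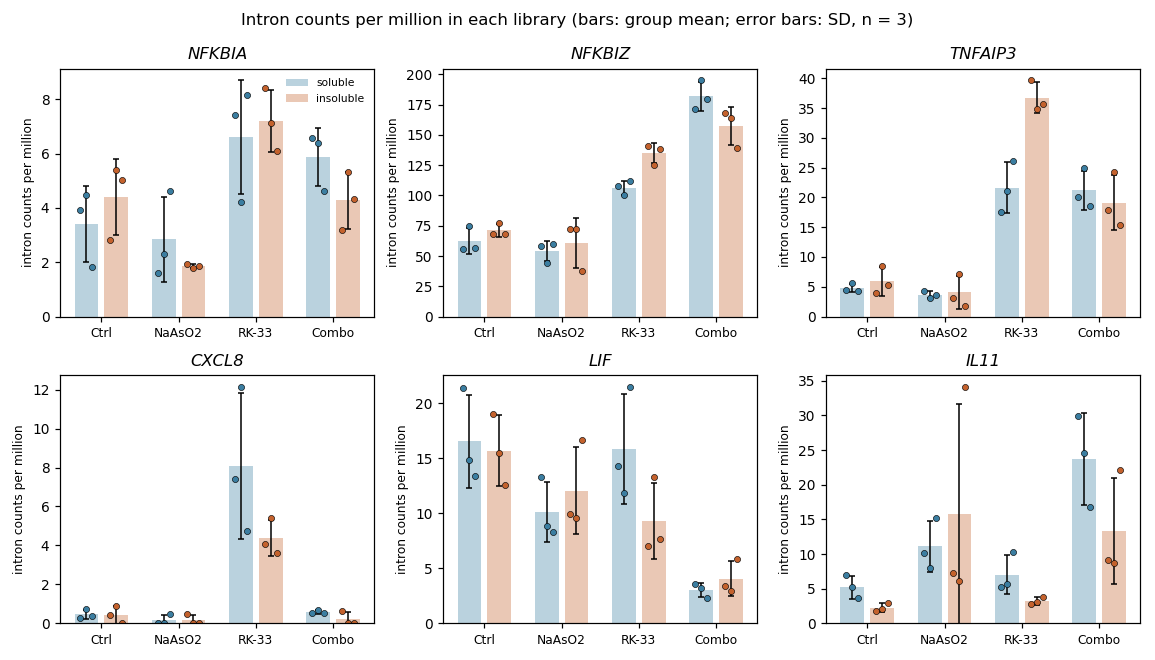
Intron level of the 6 genes tested there in CPM (vertical axes) in the 8 groups (horizontal axes), with 1 point per library and the mean and SD of 3 replicates (the SD bar of 1 IL11 group ends at 0). CXCL8 introns are seen mainly with RK-33 alone, TNFAIP3 introns peak in RK-33 insoluble, LIF introns are lowest in Combo and IL11 introns highest in Combo soluble apart from 1 NaAsO2 insoluble library.

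Other genes of the pathway were read from the same fits. Of 5 NF-kB subunit genes in 8 treatment contrasts, 0 of 40 pairs of gene and contrast were called by edgeR and 0 by DESeq2, with 9 at an unadjusted p under 0.05, against 3.63% of all such pairs called. Between fractions, NFKB1 was higher in the insoluble fraction in each of the 4 treatments (1.14, 1.39, 1.11 and 1.17 in Ctrl, NaAsO2, RK-33 and Combo, adjusted p of at most 4.20e-07 by edgeR), where 11.8%, 14.6%, 15.5% and 10.0% of all genes were called higher. RELA was lower there with NaAsO2 (-1.25), RK-33 (-1.31) and Combo (-1.38), where 2818 of 17666 genes, 15.2% of all genes and 13.1% of all genes were called lower. Of 8 genes of the IkB kinase and its upstream kinases, only TAB1, an adaptor of the kinase TAK1, was called in a treatment contrast. TAB1 stood at 1.07 after NaAsO2 in the insoluble fraction (adjusted p = 8.72e-04 by edgeR), where 5.61% of all genes were called higher. Without NaAsO2 insoluble replicate 3 it was 0.74, under the fold limit. The list thus gave 1 call in 64 pairs of gene and contrast, against 3.63% of all such pairs. Of 9 receptor genes 5 were tested, with 0 of 40 pairs called by edgeR, 0 by DESeq2 and 14 at an unadjusted p under 0.05.

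Of 13 other IkB proteins and feedback regulators, 4 rose in the insoluble fraction after NaAsO2 (5.61% of all genes). These were ZC3H12A, which encodes the ribonuclease Regnase-1 (1.57, adjusted p = 5.61e-07 by edgeR), NFKBIE, which encodes IkB-epsilon (1.42, adjusted p = 0.00136), BCL3, a nuclear IkB protein (1.249, adjusted p = 7.64e-04), and TNIP2, a partner of A20 (1.02, adjusted p = 0.00580). Without NaAsO2 insoluble replicate 3 the values were 1.32, 0.69, 1.003 and 0.43, and only ZC3H12A and BCL3 were called. The list's median was 0.75 there (0.44 without that library), against 0.24 in the soluble fraction, where edgeR called 0 of 13. ZC3H12A also exceeded its RK-33 level in Combo by 1.08 (soluble) and 1.10 (insoluble), as did BCL3 in the insoluble fraction (1.02, adjusted p = 0.0249), calls at the fold limit of which the first and the last were lost under 1 and 4 of 34 alternatives. Over the 8 treatment contrasts the list gave 7 calls by edgeR and 9 by DESeq2 in 104 pairs of gene and contrast. Of all such pairs, edgeR called 3.63%.

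Of 20 other NF-kB targets 15 were tested. After NaAsO2 in the insoluble fraction, 1 of the 15 was called higher and 1 lower, where 5.61% and 8.37% of all genes were called. Over the 8 treatment contrasts, edgeR called 6 of 120 pairs of gene and contrast, against 3.63% of all such pairs. IER3, an immediate early survival gene, rose in the insoluble fraction from 29.6 ± 4.8 CPM in Ctrl to 185 ± 59.1 CPM in NaAsO2 (SD, n = 3; log2 fold change 2.65, SE 0.18, adjusted p = 9.37e-10 by edgeR), and its fraction difference changed by 2.20 with NaAsO2 (adjusted p = 3.32e-06). Without NaAsO2 insoluble replicate 3 these were 2.43 and 1.99. IRF1, an interferon regulatory factor, had 17.6 ± 2.0 CPM in NaAsO2 soluble and 37.2 ± 6.3 CPM in Combo soluble (1.07, SE 0.14, adjusted p = 4.74e-05), a call that was lost under 3 of 34 alternatives. The chemokine gene CCL20 fell after NaAsO2 in the insoluble fraction (-1.16, SE 0.34, adjusted p = 0.00897; 8.37% of all genes were called lower), and its value was -0.97, under the fold limit, without NaAsO2 insoluble replicate 3.

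Stress genes outside the pathway moved in the same contrasts. Of 12 immediate early genes, 7 (soluble) and 10 (insoluble, 9 without NaAsO2 insoluble replicate 3) rose after NaAsO2, where 0.492% and 5.61% of all genes were called higher, and 7 and 6 after RK-33 (0.283% and 0.702% of all genes). Of 8 targets of the heat shock factor HSF1, 3 and 4 rose after NaAsO2 (2 of the 4 without that library), 6 and 5 after RK-33, and 7 and 7 in Combo against NaAsO2 (2.41% and 3.11% of all genes). Their part in the changes of the NF-kB genes was not tested.

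The genes whose log2 exon level followed each member most closely over the 24 libraries were listed by Pearson's r among genes averaging 10 CPM or more. For NFKBIA these were KLF9 (r = 0.949), ID4 (0.915) and IER3 (0.905). For NFKBIZ they were the heat shock protein genes HSPA6 (0.965), HSPA1B (0.959) and HSPA1A (0.955), the last 2 being near-identical copies between which reads may be split. For TNFAIP3 they were MYLIP (0.920), SLFN12 (0.912) and RABEP1 (0.909). For LIF they were TCFL5 (0.961), SH3BP5L (0.956) and SAP30L (0.952), and for IL11 MRPS26 (0.955), HDGF (0.953) and NUDT16L1 (0.950). For CXCL8 the highest was C2orf42 (0.887), for BIRC3 CREB5 (0.862) and for IL6, with few counts, SSBP2 (0.736). These 24 libraries share 8 groups and 12 lysates, and they are chosen as the closest of all genes, so that the values are a description.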

How the data were processed

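The deposited exon and intron count tables hold whole-number read counts per gene, made by the authors and not normalized. Reads of directional, rRNA-depleted libraries were aligned with STAR 2.7.2b to GRCh38.p13 and sorted with SAMtools 1.2, and unique alignments were counted without strand by featureCounts 1.5.3 (Subread) on GENCODE release 40 (submitters' processing notes and file headers). Introns needed an overlap of 25 bases. The number of columns of other samples was 0. Another table, of circular RNAs, names 394 circular RNAs of which 0 come from the 10 genes, and it was not used further.

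Counts were fitted with edgeR 4.0.16 (quasi-likelihood, TMM, R 4.3.3) in 1 model of 8 groups for genes averaging 1 CPM or more over 24 libraries: 17666 genes on exons and 17406 on introns, with Benjamini-Hochberg adjustment over all of them. A call needs an adjusted p below 0.05 together with a 2-fold difference or more in either direction (1 on the log2 scale), in 17 contrasts (8 treatment, 4 fraction, 5 interaction). CPM uses the TMM-scaled library size. On simulated data for NaAsO2 against Ctrl, insoluble, 83% of exon changes of 1.25 on the log2 scale and 100% of those of 2.5 were recovered (17461 genes), and 88% and 100% on introns (17111 genes). The changed genes were drawn only from those above a limit on mean counts, and no outlying library was simulated. These shares therefore do not cover IL6 exons or the introns of NFKBIA, CXCL8, LIF and IL11, which lie under that limit.

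Groups come from the sample labels. The text names the 10 genes, up to 4 genes per pathway list with the smallest adjusted p in the contrast described, and the 3 genes closest to a member by Pearson's r. Genes under 1 CPM on average are called too low to judge. Members and lists were chosen with earlier results of these data known. The methods pair the 2 fractions of 1 lysate, so blocked values are given where they change a fraction call. Deviations of paired fractions correlated at r = -0.288 to 0.110 over 12 pairs. Replicates of a group differed by 2.39 to 142 in chi-square per degree of freedom, so none is a duplicate. The same-numbered NaAsO2 and Combo insoluble libraries deviated together (r = 0.383 to 0.667, every pair over 0.1), so this contrast was also fitted with the replicate number as a block in its 2 groups alone, an alternative chosen after seeing the data. The other 11 pairs of groups of 1 fraction were not linked in that way. Alternatives (scaling, filter, test, fold limit, block, fewer groups, each library left out) were run for the 10 genes, 26 to 35 for each change (fewest for IL6, which fell under the filter in some fits), and for the 52 called changes of pathway genes; lists were also counted without NaAsO2 insoluble replicate 3. Promoter windows came from RefSeq. DESeq2 1.42.0 served as an alternative test.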

Additional observations from a re-analysis of the deposited data

Results flagged for a closer look

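In 5 interaction contrasts of 8 genes on exons, 4 tests passed both thresholds, so that the same contrast differed between groups, and 0 of the tests on introns did. The insoluble against soluble difference was larger with NaAsO2 than in Ctrl for NFKBIA (by 1.28 on the log2 scale), TNFAIP3 (by 1.11) and LIF (by 1.44), in edgeR fits with n = 3 per group. In NFKBIA the 3 Ctrl lysates had an insoluble to soluble log2 ratio of -0.63, -0.66 and -0.47 and the 3 NaAsO2 lysates 0.74, 0.52 and 0.84. In TNFAIP3 the ratios were 0.48, 0.64 and 0.61 in Ctrl and 1.54, 2.14 and 1.30 with NaAsO2. In LIF they were -0.32, -0.18 and -0.11 in Ctrl and 0.68, 0.93 and 1.83 with NaAsO2, the last from the lysate whose insoluble library stood apart. The effect of arsenite on NFKBIZ in the soluble fraction was larger with RK-33 than without it, by 1.16.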

How the results depend on the processing

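Of 46 called changes of single genes, 33 kept their direction and their side of the threshold under every alternative run, 13 lost the threshold under at least 1, and 0 reversed; of 192 uncalled changes 29 passed under at least 1. With each library left out in turn, calls over the 8 treatment contrasts numbered 15 to 17 (15 with all), fraction calls 6 to 9 (8), interactions 3 to 7 (4) and intron calls 17 to 21 (19). By contrast, the exon counts ranged from 0 to 0 and 3 to 5 for NaAsO2 against Ctrl (soluble, then insoluble), 1 to 3 and 3 to 3 for RK-33 against Ctrl, 3 to 4 and 1 to 4 for Combo against NaAsO2, 1 to 1 and 1 to 1 for Combo against RK-33, 1 to 2, 1 to 3, 2 to 4 and 1 to 2 for the fractions in Ctrl, NaAsO2, RK-33 and Combo, and 3 to 4, 0 to 0, 0 to 1, 0 to 1 and 0 to 1 for the interactions. Intron counts ranged from 0 to 0, 1 to 2, 2 to 2, 2 to 2, 3 to 4, 3 to 4, 3 to 3 and 2 to 4 in the same order of treatment contrasts, 0 to 1, 0 to 0, 0 to 1 and 0 to 1 for fractions, and 0 to 0, 0 to 0, 0 to 0, 0 to 2 and 0 to 0 for interactions.

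Without the fold limit there were 23 treatment and 16 fraction calls, namely 5 for Combo against NaAsO2 and 2 for Combo against RK-33 in the insoluble fraction, 3, 4, 5 and 4 for the fractions, 2 for the arsenite effect in the insoluble fraction, and on introns 2 for the fractions with RK-33 and 1 for the arsenite effect in the soluble fraction. With a log2 limit of 2 there were 1 treatment call (Combo against NaAsO2, soluble), 0 fraction calls, 0 interactions and 11 intron calls, 1 each for NaAsO2 against Ctrl in the insoluble fraction and for Combo against NaAsO2 in both fractions. Interactions numbered 7 with no filter on low counts and 7 with exon plus intron counts, of which the arsenite effect in the insoluble fraction gave 1 and 2, and the fraction effect of Combo minus NaAsO2 1 with no filter. Combo against NaAsO2 in the insoluble fraction gave 2 calls under RLE, the likelihood ratio test, DESeq2, no filter and filterByExpr, the second being IL11, lower, and 0 with only its own groups. Ctrl fractions gave 2 with exon plus intron counts, and Combo fractions 1 under library size alone, no filter, filterByExpr or exon plus intron counts. The arsenite effect in the insoluble fraction gave 1 under RLE, DESeq2 and without RN7SL genes. Intron calls between fractions were 1, 3 and 1 in Ctrl, RK-33 and Combo under library size alone and 1 in Ctrl and RK-33 with no filter. The intron fraction effect of NaAsO2 gave 1 with no filter, and the intron arsenite effect in the soluble fraction 1 under the likelihood ratio test, DESeq2 and no filter. The causes were not tested.

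The replicate block was the lysate for fraction contrasts and fraction interactions (12 lysates) and the replicate number elsewhere. Across treatments, same-numbered libraries of 1 fraction correlated in their deviations at r = -0.310 to 0.667, with every pair over 0.1 in 1 of 12 pairs of groups, NaAsO2 and Combo insoluble. With the replicate block the totals were 16, 8, 4 and 20. Beside the fraction calls given above, it added CXCL8 for RK-33 against Ctrl in the soluble fraction (1.03, adjusted p = 0.0350 by edgeR) and IL11 introns for Combo against NaAsO2 in the soluble fraction (1.20, adjusted p = 0.0398), and it changed no other call. In a fit of NaAsO2 and Combo insoluble alone with the replicate number as a block, there was 1 exon call, NFKBIZ (1.72, adjusted p = 0.0023), and 3 intron calls, NFKBIA introns losing theirs. Of 52 called changes of pathway genes, 29 kept their direction and threshold under every alternative, 23 lost the threshold under at least 1 and 0 reversed. Few counts limit IL6, BIRC3, CXCL8 introns and NFKBIA introns, and CXCL1 and CXCL2 were not detectable beyond single counts.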
